A study of Caenorhabditis elegans with 3 samples.

Results

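Histone genes encode the proteins that package DNA, and they were followed here in poly(A) RNA of Caenorhabditis elegans embryos of 3 genotypes. Members were all genes with a WormBase symbol beginning with his-, the linker genes hil-1 to hil-8 and htz-1, 81 genes in all, each with a row in the deposited table of 40669 rows. The first genotype, called DCC mutant here, was strain TY0810 with sdc-2(y93) fed bacteria that express sdc-2 RNAi, with 3 replicates in the labels. SDC-2 recruits the dosage compensation complex (DCC), which lowers transcription of both X chromosomes in XX embryos. The second, 8rex deletion, was strain TY5827 with 5 replicates, which carries rex-8(y737), rex-14(y738), rex-32(y572), rex-33(y743), rex-35(y740), rex-43(y741), rex-47(y671) and rex-48(y742) on X, and rex sites are the DNA elements that recruit the complex. The third, wild type (WT), was strain N2 with 5 replicates. 8rex deletion and WT worms were fed bacteria carrying the empty vector pL4440, so all worms grew on HT115 bacteria. The table gives a single FPKM (fragments counted per kilobase of a transcript and scaled for the size of the library) for each genotype. The authors had merged the replicates, so spread between replicates cannot be given, and only their p and q bear on how reliable a difference is. The depth of the libraries is unknown.

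Core histones (H2A, H2B, H3 and H4) form the nucleosome, and in animals most of their mRNA is made in S phase from clustered genes without introns. Such replication-dependent mRNAs usually end in a stem-loop in place of a poly(A) tail. Variant histones such as H2A.Z, encoded by htz-1, and H3.3 are deposited outside replication, and their genes commonly have introns and polyadenylated mRNA. H1 linker histones bind the DNA between nucleosomes. In the annotation used here, 12 of the 15 variant and linker members have introns in every transcript. In C. elegans, histone mRNA maturation also depends on the Argonaute CSR-1. Since the libraries held RNA selected for poly(A), a low FPKM of a core gene does not separate few mRNA molecules from molecules without a tail, and which of these holds was not tested. In these bulk samples, fewer cells of a type and less RNA per cell cannot be told apart.

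The replicates differed in embryo stage. Mixed-stage embryos came from bleached gravid hermaphrodites and were mostly younger than the comma stage. For older embryos, young adults were bleached 68 to 70 hours after first-stage larvae were plated, and their embryos then developed for 7 to 8 hours at 20 °C, by which time the larger part stood at the 3-fold stage. Of the DCC mutant replicates, 2 were mixed-stage and 1 was older (33.3% older if weighted equally), whereas 8rex deletion and WT each had 2 mixed-stage and 3 older replicates (60% older). Stage and genotype cannot be told apart in the DCC mutant values. The 15 early-embryo marker genes summed to 1212 FPKM in the DCC mutant, 599 FPKM in 8rex deletion and 585 FPKM in WT. The 15 late-embryo markers summed to 6269.97 FPKM in the DCC mutant, 7408 FPKM in 8rex deletion and 7369.6 FPKM in WT. The cuticle collagen gene sqt-3 was then left out, after its values were seen. The other late markers summed to 2923 FPKM in the DCC mutant, 2804 FPKM in 8rex deletion and 2733 FPKM in WT. The direction of the sum thus depends on which markers are counted. The X-linked markers mup-2 and tnt-2 had 620 and 75.8 FPKM in the DCC mutant, against 357 and 43.0 FPKM in WT. For dpy-7, also X-linked, the values were 319 and 339 FPKM. Both tnt-2 and dpy-7 shared their rows with another coding gene. In all, 5 of the 15 late and 4 of the 15 early markers had shared rows, which the sums count whole. The largest early value, that of oma-1, came from a row with 5 coding genes. That row had 292, 123 and 153 FPKM in the DCC mutant, 8rex deletion and WT. Of the early markers, 8 had a row with a single coding gene and a mean of at least 1 FPKM, all 8 were above 0 in the DCC mutant, beside 48% of all rows, and 5 had an authors' p under 0.05, beside 1.39% of tested rows, each with a q of 0.999938. Of 10 such rows of late markers, 3 were above 0 and 7 below, and the troponin gene mup-2 was higher (the authors' deposited table, p = 0.0289, q of 0.999938). Of the early and late markers, only the GATA factor genes med-1 and med-2 were listed at 0 in the DCC mutant. The part of stage in the histone values was not tested. The adult yolk genes vit-2, vit-4, vit-5 and vit-6 stood at 0.281 FPKM or less in all 3 genotypes. Of the other adult markers, col-19 had 0.247, 1.15 and 0.930 FPKM in the DCC mutant, 8rex deletion and WT. In the same order, rme-2 had 6.98, 6.37 and 5.64 FPKM and puf-5 had 33.5, 18.7 and 18.6 FPKM. The targeted gene sdc-2 stood at 10.98 FPKM in the DCC mutant, 16.01 FPKM in 8rex deletion and 18.04 FPKM in WT, and the authors' deposited table gave p = 0.505 for the DCC mutant.

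The 81 genes were divided into 66 core genes and 15 variant and linker genes. The variant and linker group held the H2A.Z gene htz-1, 9 linker genes (his-24 and hil-1 to hil-8) and 5 genes of H3.3 type (his-69 to his-72 and his-74). By coding length, the core genes were 17 of H2A, 16 of H2B, 15 of H3 and 16 of H4, and 2 short genes, his-39 and his-73, had no class. Of the 66, 65 lay within 10 kb of another core gene and only his-73 stood alone. Variant and linker genes held most of the signal. They took 89.0% of the summed FPKM of the 81 genes in the DCC mutant, 88.3% in 8rex deletion and 88.6% in WT. Core genes without introns, 62 of the 81, took 2.68%, 1.79% and 1.97% in the same order.

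**Figure D1:**
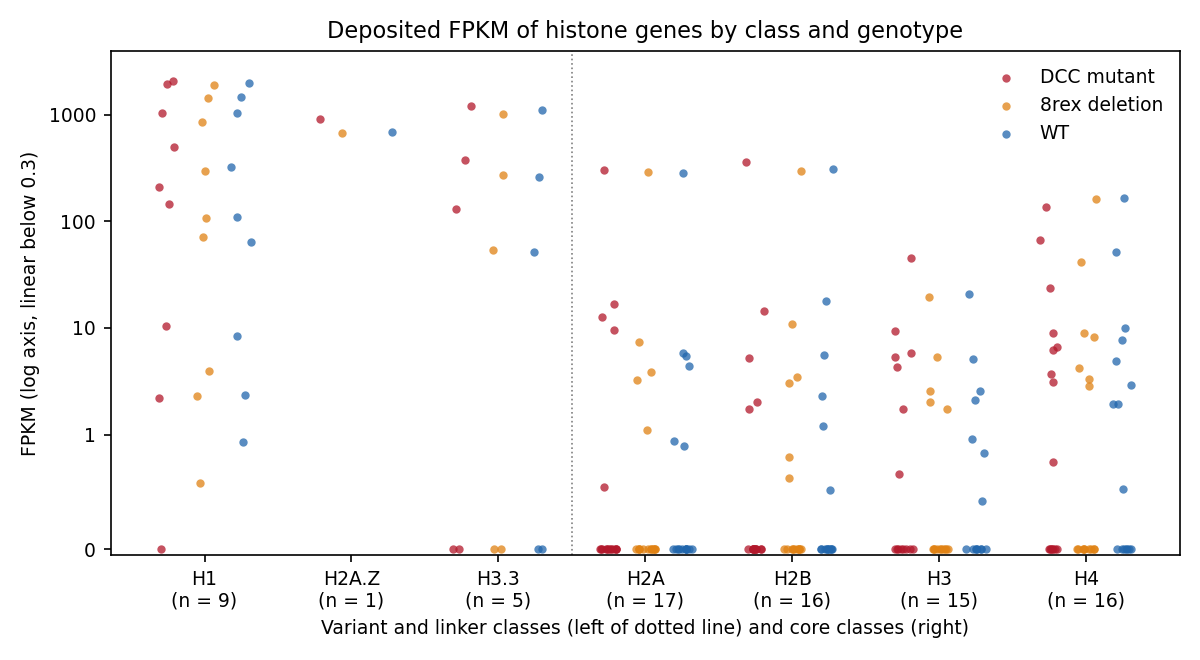
Deposited FPKM (log axis, linear below 0.3) of each histone gene by class, with 1 point per gene and genotype and n the number of genes. The linker, H2A.Z and H3.3 genes reach the highest levels, up to 2086 FPKM for his-24 in the DCC mutant, while many core genes lie at 0.

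Linker histones were the most abundant class. The gene hil-7 (WBGene00001858, IV, 6646312 to 6646972) had 1934 FPKM in the DCC mutant, 1899.7 FPKM in 8rex deletion and 2004 FPKM in WT. Linker genes were classed by symbol alone, and the annotated coding lengths of hil-7 are only 117 to 198 bases, against 624 for his-24. The H1 gene his-24 (WBGene00001898, X, 14490094 to 14491119) had 2086 FPKM in the DCC mutant, 1429.6 FPKM in 8rex deletion and 1459 FPKM in WT. The gene hil-2 (IV, 6294240 to 6295217) had 1034 FPKM in the DCC mutant, 855 FPKM in 8rex deletion and 1044 FPKM in WT. These 3 genes led the H1 class in every genotype, but hil-7 was above his-24 in 8rex deletion and WT and below it in the DCC mutant. A middle tier followed, with hil-3 (X, 8159169 to 8160084) at 496, 297 and 324 FPKM in the DCC mutant, 8rex deletion and WT. The gene hil-5 (I, 5774585 to 5775610) had 211 FPKM in the DCC mutant, 108 FPKM in 8rex deletion and 110.5 FPKM in WT. The gene hil-4 (V, 4754313 to 4755453) had 146 FPKM in the DCC mutant, 72.2 FPKM in 8rex deletion and 63.5 FPKM in WT. All members of this tier had their highest value in the DCC mutant. The 3 remaining linker genes were low in every genotype. They were hil-6 (V, 2030507 to 2031554) with 10.3, 3.98 and 8.47 FPKM, hil-1 (V, 14949777 to 14952799) with 2.204, 2.31 and 2.33 FPKM, and hil-8 (I, 5463117 to 5469639) with 0, 0.350 and 0.847 FPKM, each in the order DCC mutant, 8rex deletion and WT.

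Among the variants of nucleosome histones, the H3.3 gene his-72 (WBGene00001946, III, 12367475 to 12369050) was highest, with 1222 FPKM in the DCC mutant, 1010.0 FPKM in 8rex deletion and 1120.1 FPKM in WT. The H2A.Z gene htz-1 (WBGene00019947, IV, 4446216 to 4446999) had 914 FPKM in the DCC mutant, 675 FPKM in 8rex deletion and 693 FPKM in WT. The second H3.3 gene, his-71 (WBGene00001945, X, 7981382 to 7982070), had 380.3 FPKM in the DCC mutant, 272 FPKM in 8rex deletion and 258 FPKM in WT. For each of these 3 genes the DCC mutant gave the highest value. The value of his-72 was lower in 8rex deletion than in WT by about as much as it was higher in the DCC mutant. A further H3.3 gene, his-74 (V, 12659704 to 12660330), shared its row with the coding gene ccch-3. That row had 129.6 FPKM in the DCC mutant, 54.5 FPKM in 8rex deletion and 52.0 FPKM in WT, and the share of each gene in it is not known. The genes his-69 (III, 4058360 to 4058743) and his-70 (III, 4059715 to 4060119) were listed at 0 in all 3 genotypes.

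Core genes split by structure. Only 4 of the 66 had an intron in an annotated transcript, and 3 of these lie together on chromosome V, between 9544659 and 9547607. They were his-35 (H2A) with 307, 292 and 286 FPKM in the DCC mutant, 8rex deletion and WT, and his-37 (H4) with 138, 164 and 166 FPKM in that order. The H2B gene his-41, in a row shared with the coding gene C50F4.6, had 362 FPKM in the DCC mutant, 295 FPKM in 8rex deletion and 308 FPKM in WT. These 3 rows were the only core rows with a mean of 100 FPKM or more. No core gene without introns came above a mean of 53.4 FPKM over the 3 genotypes. The fourth core gene with an intron in some of its transcripts, his-57 (IV, 11340390 to 11341703), is listed under the symbol his-47 together with 2 other genes, and stood at 0, 0 and 0.779 FPKM. Over all 81 members, the 15 genes with introns in every transcript had means between 0.399 and 1658 FPKM and 14 of them reached a mean of 1 FPKM, against 19 of the 64 genes with a single exon. Over all protein-coding genes with a row of their own, 66.4% of the 15916 with an intron and 47.0% of the 557 without reached that mean, so a difference in this direction was also seen outside the family.

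Values of 0 went with symbols shared by several genes. RefSeq gives each of the 66 core genes a symbol of its own, but in the Ensembl annotation 36 of them share 14 symbols. Of these 36 genes, 32 were listed at 0 in all 3 genotypes and none reached a mean of 1 FPKM, whereas of the 30 core genes with an unshared symbol 1 was listed at 0 in all 3 genotypes, and 22 reached a mean of 1 FPKM. The single exception at 0 was his-16 (II, 13817760 to 13818143). Among genes with 1 exon, the corresponding counts at 0 were 32 of 35 with a shared symbol and 1 of 27 with an unshared one. Of all protein-coding genes with 1 exon and a row of their own, 30.9% were listed at 0 in all 3 genotypes. The sources used here do not say how reads that match several copies were counted. A listed 0 may also stand for an estimate that failed, so these values do not show that the copies are silent. The values of the other core genes may likewise miss reads shared with copies, and this was not tested.

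**Figure D2:**
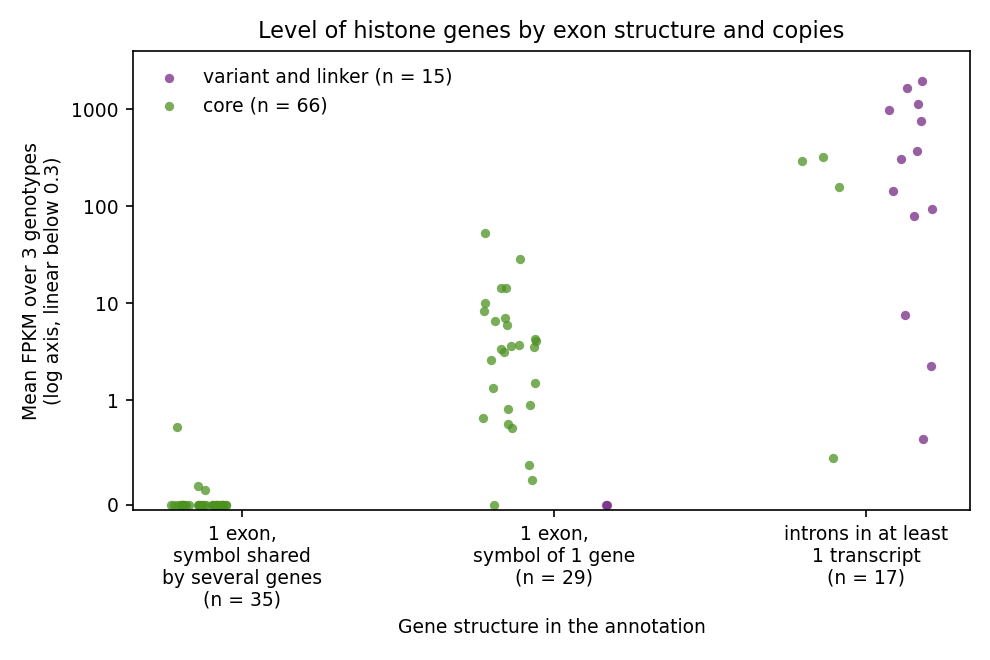
Mean FPKM over the 3 genotypes (log axis, linear below 0.3) for each histone gene, grouped by exon number and by whether the Ensembl symbol is shared; core genes are green and variant and linker genes purple. Of the 35 single-exon genes with a shared symbol 32 lie at 0, and all 11 genes with a mean of at least 100 FPKM have introns in at least 1 transcript; his-69 and his-70 overlap at 0.

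The chains of core genes differed accordingly. Joined where neighbours lay within 10 kb, the core genes fell into 13 chains of several genes plus his-73. The chain of 13 genes on II (13817760 to 13828697) had 11 genes at 0 and summed to 0 FPKM in the DCC mutant, 0 FPKM in 8rex deletion and 0.918 FPKM in WT. The 6 genes on V between 8847393 and 8854053 were all listed at 0, and the 8 genes on V between 8889488 and 8898539 summed to 0.972, 0 and 1.92 FPKM in the DCC mutant, 8rex deletion and WT. In these chains 11 of 13, 6 of 6 and 6 of 8 genes have a shared symbol. The 4 genes on IV between 7485834 and 7488659, his-59 to his-62, all had unshared symbols and summed to 103.5, 61.1 and 79.8 FPKM in the same order. The chain that holds his-31 and his-32 on IV (8331044 to 8336340) summed to 53.96, 27.99 and 28.5 FPKM, with its 4 genes of shared symbol at 0. Compared with WT, the summed FPKM of a chain was higher in the DCC mutant for 10 of the 14 units and lower for 3, while in 8rex deletion it was higher for 4 and lower for 9. Counted over rows rather than chains, 48% of all rows that passed the filter were higher and 47.3% lower in the DCC mutant, and 47.6% were higher and 50.5% lower in 8rex deletion. The remaining unit was at 0 in all genotypes.

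**Figure D3:**
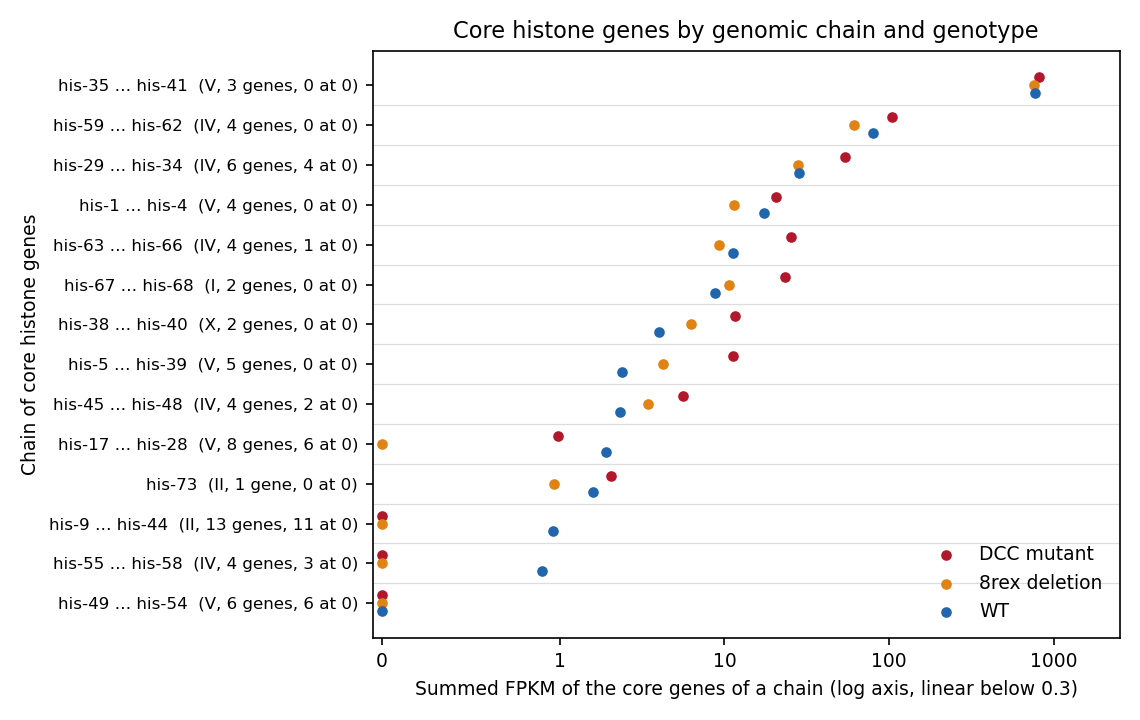
Summed FPKM (log axis, linear below 0.3) of the core histone genes in each chain of neighbours, 1 point per genotype, with the chromosome, the number of genes and the number listed at 0 beside the first and last gene by number. The chain of his-35, his-37 and his-41 stands at 806, 751 and 761 FPKM in the DCC mutant, 8rex deletion and WT, far to the right of the chain of 13 genes on II.

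Of the single-exon core genes, the H4 gene his-60 (WBGene00001934, IV, 7487681 to 7487992) was highest, with 67.3 FPKM in the DCC mutant, 41.6 FPKM in 8rex deletion and 51.3 FPKM in WT. Its divergent neighbour, the H3 gene his-59 (IV, 7488249 to 7488659), had 9.29 FPKM in the DCC mutant, 5.31 FPKM in 8rex deletion and 5.12 FPKM in WT. So the partners of an H3 and H4 pair could stand far apart in level. In the pair on IV at 8333672 to 8334715, the order was the other way, with the H3 gene his-32 at 44.98, 19.7 and 20.7 FPKM and the H4 gene his-31 at 8.99, 8.31 and 7.75 FPKM in the DCC mutant, 8rex deletion and WT. The H2A and H2B genes of the his-59 chain were his-61 (IV, 7485834 to 7486217) with 12.6, 3.28 and 5.49 FPKM, and his-62 (IV, 7486545 to 7486916) with 14.3, 10.9 and 17.9 FPKM in the same order. Here his-61 was highest in the DCC mutant and his-62 in WT. The remaining genes among the 12 highest core rows were the H4 gene his-64 (IV, 11407116 to 11407427) with 23.7, 8.91 and 10.1 FPKM, the H2A gene his-68 (I, 9989132 to 9989515) with 16.7, 7.36 and 5.82 FPKM, and the H2A gene his-3 (V, 16040808 to 16041191) with 9.54, 3.83 and 4.42 FPKM.

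Summed by protein, the variants outweighed the core genes in both classes that have them, H3 and H2A. Genes of H3.3 type made up 96.0% of all H3 FPKM in the DCC mutant, 97.7% in 8rex deletion and 97.8% in WT. These shares count the whole row of his-74, which also holds ccch-3. Without that row, the H3.3 genes summed to 1603, 1282 and 1379 FPKM in the same order. The 15 core H3 genes together had 71.8, 31.3 and 32.3 FPKM in the same order. For H2A, htz-1 gave 72.5%, 68.7% and 69.5% of the summed FPKM, his-35 and his-57 24.4%, 29.7% and 28.8%, and the single-exon genes 3.11%, 1.59% and 1.67%. The deposited row of htz-1 starts 18.5 kb before the gene, so what else it counts is not known. H2B and H4 have no variant among the members. For H2B, the row of his-41 held 93.9% in the DCC mutant, 94.1% in 8rex deletion and 91.9% in WT. For H4, his-37 gave 53.3%, 70.3% and 67.2% of the sum, and single-exon genes the rest. These shares describe poly(A) RNA as deposited and not the make-up of chromatin.

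The DCC mutant was set against WT to ask how expression differs with sdc-2 mutated and targeted by RNAi. Differences are given as log2(FPKM + 1), which understates the change of low genes. Of the 81 genes, 34 reached a mean of 1 FPKM over the 3 genotypes, and 32 of these had a row with no coding gene from outside the family. The other 47 members comprised 35 listed at 0 throughout and 12 between 0.082 and 0.888 FPKM. Of the 32 rows, 25 had a positive difference in the DCC mutant and 7 a negative one, with a median of 0.58, beside 48% of all 15628 rows above 0 and a median of 0.00. At least 1.5-fold higher were 16 of the 32 rows, beside 17.6% of all rows, and at least 1.5-fold lower was 1 row, beside 18.4%. At least 2-fold higher were 9 rows, beside 8.55% of all rows, and 2-fold lower was 1, beside 12.1%. Counting only rows that passed a filter favours genes that are high somewhere, and his-5 and his-6 passed with less than 1 FPKM in WT, so these counts do not describe all members. Without the filter, 79 rows had a median of 0.00.

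Core genes carried most of the higher values. Of the 21 core rows 17 were above 0, with a median of 0.92, and 13 were at least 1.5-fold higher, all with a single exon. The 2 core rows with introns, his-35 and his-37, had a median of -0.09. By level, the 17 histone rows with means from 1 to 10 FPKM had a median of 0.92. The 5 rows from 10 to 100 FPKM had 1.08, and the 10 rows from 100 FPKM had 0.26. All rows at these levels had medians of -0.02, 0.04 and 0.02. Class and level were not separated. All 4 H2A rows and all 5 H3 rows that passed were above 0, as were 6 of the 8 H4 rows, but only 1 of the 3 H2B rows. The largest positive differences among core rows belonged to the H4 gene his-5 (V, 8535214 to 8535525), with 3.72 FPKM in the DCC mutant, 0 FPKM in 8rex deletion and 0.306 FPKM in WT (1.85 over WT on the log2 scale), and its neighbour, the H3 gene his-6 (V, 8534567 to 8534977), with 4.27, 2.54 and 0.916 FPKM (1.46). Both were low throughout, and their fold changes rest on values near the bottom of the range. Next came his-68 (1.37) and the X-linked H4 gene his-38 (X, 7309564 to 7309875), with 6.23, 4.23 and 1.92 FPKM in the DCC mutant, 8rex deletion and WT (1.31). On the lower side stood the H2B gene his-4 (V, 16040144 to 16040515), with 2.02 FPKM in the DCC mutant, 3.04 FPKM in 8rex deletion and 5.56 FPKM in WT (-1.12), and the H4 gene his-1 (V, 16042520 to 16042831), with 3.13, 2.86 and 4.87 FPKM (-0.50). The genes his-62 (-0.30) and his-37 (-0.27) followed. The chain of his-4 and his-1 on V also holds the H2A gene his-3 (0.96) and the H3 gene his-2 (0.92), both on the higher side. As listed, these neighbours did not share a direction, but all stood at 9.54 FPKM or less. The rows of his-2, his-3 and his-4 start 16.8 to 18.5 kb before their genes.

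Variant and linker rows differed less. Of the 11, 8 were above 0 and 3 below, with a median of 0.40, so that the core median stood 0.52 above it. Without the filter, 33 of the 65 core rows are at 0 in all genotypes, which sets the core median to 0, so the difference of -0.19 found there does not bear on that order. The abundant genes hil-7 (-0.05), hil-2 (-0.01) and his-72 (0.13) had nearly the same value in the DCC mutant and WT. Higher values belonged to hil-4 (1.19), hil-5 (0.93) and hil-3 (0.61), and among shared rows to his-74 with ccch-3 (1.30). The deposited row of hil-4 starts 106.7 kb before the gene, so what else it counts is not known. For hil-4 the authors' deposited table gave p = 0.577. With the 11 rows split by chromosome, the 8 autosomal ones had a median of 0.19. The 5 X-linked members were hil-3, his-24, his-71, his-38 and his-40. All 5 were higher in the DCC mutant than in WT, by 0.52 to 1.31, with a median of 0.61. Of all X-linked rows 70.3% were above 0, with a median of 0.46. Of the 27 autosomal histone rows 20 were above 0, with a median of 0.40, beside 42.8% of all autosomal rows and a median of -0.04. The X-linked linker genes his-24 and hil-3 were 1.43-fold and 1.53-fold higher by the ratio of FPKM, and his-71 was 1.47-fold higher.

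Gene by gene, a single member passed the authors' test without adjustment. In the authors' deposited table, hil-5 had p = 0.045 for the DCC mutant (1.91-fold higher), but a q of 0.999938. Of the 25 members with an authors' p other than 1, taken as tested, this was the only one under 0.05, beside 1.39% of the 9509 tested rows of the table that were higher and 0.684% that were lower at that level. The next smallest p in the authors' deposited table were 0.130 for hil-3, 0.133 for his-68, 0.147 for his-71 and 0.153 for his-32. For the most abundant members the authors' deposited table gave p = 0.275 for his-24, 0.384 for htz-1, 0.730 for his-72, 0.888 for hil-7 and 0.975 for hil-2. A p that misses the threshold does not show that the levels were equal. No core row had an authors' p under 0.05.

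**Figure D4:**
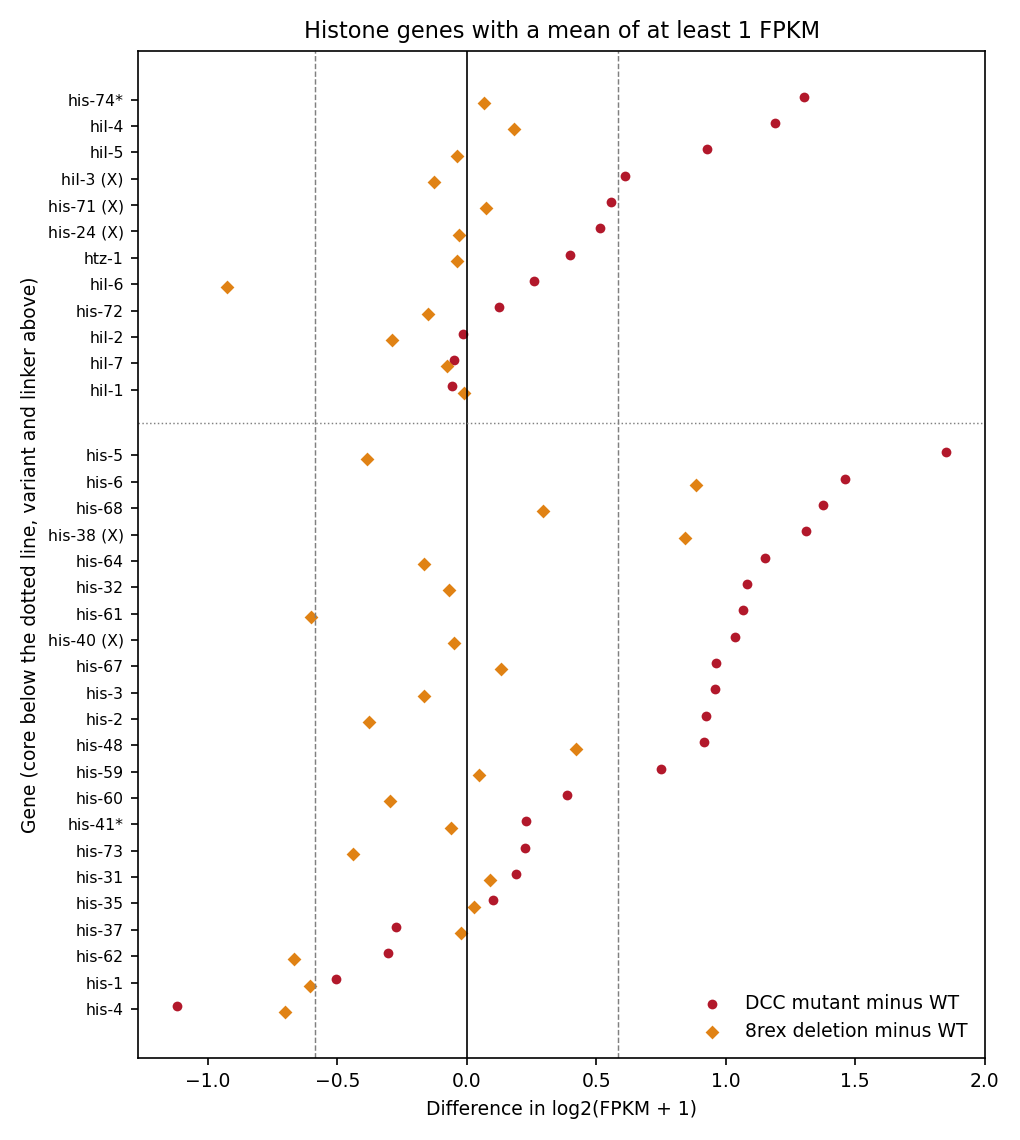
Difference in log2(FPKM + 1) from WT for the 34 histone rows with a mean of at least 1 FPKM, circles for the DCC mutant and diamonds for 8rex deletion; dashed lines mark 1.5-fold, (X) marks X-linked genes and * a row shared with a coding gene outside the family. Most core circles lie right of 0 while the diamonds scatter around it.

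8rex deletion was compared with WT to ask what loss of these recruitment sites does to expression. Most histone rows that passed the filter lay within 1.5-fold of WT, as did most of all rows that passed it. Both comparisons share the WT values, so they are not independent. Of the 32 rows, 10 were above 0 and 22 below, with a median of -0.06, beside 47.6% of all rows above 0, 50.5% below 0 and a median of 0.00. At least 1.5-fold higher were 2 rows, beside 13.5% of all rows, and at least 1.5-fold lower were 5 rows, beside 10.8%. On this log2(FPKM + 1) scale none was 2-fold higher, beside 9.36% of all rows, or 2-fold lower, beside 7.03%. By the plain ratio of FPKM, his-6 was 2.77-fold and his-38 2.21-fold higher, hil-6 was 2.13-fold lower, and his-5 was listed at 0 in 8rex deletion. The core median was -0.07 over 21 rows and the variant and linker median -0.04 over 11 rows. The rows past 1.5-fold had means of 14.4 FPKM or less. The largest positive differences were those of his-6 (0.89), his-38 (0.84), the H2B gene his-48 (0.42; IV, 11324745 to 11325116, with 5.27, 3.45 and 2.32 FPKM in the DCC mutant, 8rex deletion and WT) and his-68 (0.29). The largest negative ones were those of his-4 (-0.70), his-62 (-0.67), his-1 (-0.60) and his-61 (-0.60) among core rows and of hil-6 (-0.93) among linker rows. In the authors' deposited table the smallest p of the 20 members tested was 0.257, for hil-6, and no member was under 0.05, beside 0.288% of tested rows higher and 0.171% lower. The X-linked members differed from WT by -0.13 to 0.84, with 2 of the 5 above 0, beside 46% of all X-linked rows.

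Genes that act on histones were read from fixed lists, counting rows with a single coding gene and a mean of at least 1 FPKM. For histone mRNA 3' end formation, 9 of 11 rows were above 0 in the DCC mutant, beside 48% of all rows, with a median of 0.29, and none had an authors' p under 0.05. The gene cdl-1, which encodes the stem-loop binding protein, shared its row with another coding gene and had 237 FPKM in the DCC mutant, 168 FPKM in 8rex deletion and 178 FPKM in WT (the authors' deposited table, p = 0.372 for the DCC mutant). The gene csr-1 had 9.71, 5.82 and 5.32 FPKM in the same order (the authors' deposited table, p = 0.149). Of 16 rows of histone chaperones and exchange factors, 13 were above 0, beside 48% of all rows, with a median of 0.39. A single member of that list had an authors' p under 0.05, beside 1.39% of tested rows higher and 0.684% lower. This was the chaperone gene nasp-2 (the authors' deposited table, p = 0.00675, q of 0.999938, higher). It had 196 FPKM in the DCC mutant, 90.9 FPKM in 8rex deletion and 85.1 FPKM in WT. The centromeric H3 gene hcp-3 had 69.2, 42.7 and 46.2 FPKM (the authors' deposited table, p = 0.755). The 3 rows of its list were above 0, beside 48% of all rows. Of 20 DNA replication rows, that of psf-2 held 6 gene identifiers and was listed at 0 in WT, so it is left out here. The other 19 were all above 0, beside 48% of all rows, with a median of 0.60. Only the sliding-clamp gene pcn-1 had an authors' p under 0.05, beside the same shares of tested rows (the authors' deposited table, p = 0.0274, q of 0.999938, higher). It had 308.7 FPKM in the DCC mutant, 162 FPKM in 8rex deletion and 153 FPKM in WT. In 8rex deletion the medians of these 4 lists were -0.03, -0.08, -0.11 and 0.01, beside 0.00 for all rows, with 5 of 11, 4 of 16, 0 of 3 and 12 of 19 rows above 0, beside 47.6% of all rows, and no member had an authors' p under 0.05.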

How the data were processed

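Poly(A) RNA of embryos was sequenced in 3 genotypes, per the labels. Embryos were obtained by bleaching, and older populations developed at 20 °C for 7 to 8 hours. Per the submitters' processing notes, cutadapt 1.2.1, TopHat2 2.1.1, Cufflinks 2.2.1 and build ce11 were used. The sources used here do not give their settings, the annotation, the use of strand or the treatment of reads that match several places. The authors deposited FPKM values, 1 per genotype and row, and, per the file headers, a log2 fold change, a p-value and a q-value for each mutant against wild type; the test is not named there. A p of 1 was taken as not tested.

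Genes were identified with Ensembl release 115 (the same assembly), and copies that share a symbol by exact RefSeq position (81 of 81 matched). Core classes follow coding length in bases without the stop codon (H4 309, H2B 366 or 369, H2A 381, H3 408), or for his-57 that of the other genes with its symbol. Rows with a mean of at least 1 FPKM were kept and differences taken as log2(FPKM + 1). The table has no replicates, so no test was made here, no standard deviation can be given and the authors' p is described. The planned search for 3' stem-loops was not made and no sequence is shown, since no genome sequence was used. For 24 members the deposited start lay at a coordinate over 1 kb below the start of the gene. Among them were hil-4 (106.7 kb) and htz-1 (18.5 kb). Members, lists and alternatives were chosen with earlier results of these data known. Named genes are every variant and linker gene, the 12 highest core rows, the 4 largest differences each way and any member with an authors' p under 0.05. The summary step was tested on simulated data. Python 3.11.15, numpy 2.4.6, pandas 2.3.3 and matplotlib 3.10.9 were used.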

Additional observations from a re-analysis of the deposited data

How the results depend on the processing

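Across 10 results and 10 settings, 90 of 100 values moved by at most 0.2 on the log2 scale (counts within 1.5 times) and none of these changed sign, though the 8rex deletion medians of all rows and of core rows were 0.00 without the filter. Some could not change: rows with 1 gene identifier were the same 32 rows, rescaling leaves core minus variant differences as they are, and taking core genes with 1 exon only leaves the variant medians as they are. These say nothing about stability. Without a filter on low values, where many core rows are at 0, the DCC mutant medians were 0.00 for all rows, 0.00 for core rows and 0.19 for variant and linker rows, and the core median minus the variant median turned to -0.19; in 8rex deletion that difference turned to 0.037. With a mean of at least 5 FPKM (21 rows), it was 0.29 in the DCC mutant, and 9 rows were at least 1.5-fold higher in the DCC mutant and 0 in 8rex deletion. With autosomal rows only, a setting chosen after the data were seen, the variant and linker median was 0.19 in the DCC mutant and 1 row was at least 1.5-fold higher in 8rex deletion. Rescaling to an autosomal median of 0 shifted the medians by 0.04 or less, and 17 rows, against 16, were then at least 1.5-fold higher in the DCC mutant. Without the filter, the core median of 0.00 follows from the rows at 0. The variant and linker median there also took in hil-8, with a difference of -0.89 in the DCC mutant. Causes of the other changes were not tested. No paired analysis was possible because replicates were combined before deposit. Depth is unknown, so no limit can be set on values of 0.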
